A study of Mus musculus with 3 samples.

Results

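A small set of organoid cells carried several transcripts of Anxa1, Ly6a and Sprr1a, genes that injured and fetal-like intestinal epithelium is known to switch on. Members were chosen by their unique molecular identifiers (UMIs, counts of captured mRNA molecules), as cells with 3 or more UMIs of the 3 genes together. There were 21 such cells among 2545 ENR cells and 146 among 2383 ENR+CD cells, so 167 of 4928 cells in all. The reference cells were the cells of the same library without any UMI of the 3 genes, 2369 in ENR and 1683 in ENR+CD. The cells with 1 or 2 UMIs (155 and 554) belong to neither set.

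The study profiled mouse small intestinal organoids by Seq-Well, a method that seals each cell with a barcoded bead in its own small well so that mRNA molecules can be traced to cells. Each condition was 1 array, loaded with cells of 6 wells from 1 donor at day 6. Crypts came from the proximal small intestine of C57BL/6 mice, and the methods give an age of 3 to 6 months. All organoids grew in Matrigel from a precursor culture held in ENR+CV, with the rho kinase inhibitor Y-27632 at its start. All groups shared ENR medium, named for its 3 factors, of which EGF was used at 50 ng/mL, the BMP inhibitor Noggin at 100 ng/mL, and the Wnt amplifier R-spondin 1 at 500 ng/mL. ENR+CD added CHIR99021 at 3 µM, which activates Wnt signaling, and DAPT at 10 µM, which blocks Notch, to enrich Paneth cells (PCs). ENR+CV, the stem cell culture, held CHIR99021 at 3 µM and valproic acid at 1 mM, and only 3 of its 985 kept cells met the rule. There is no replicate library, so no test between conditions or cell sets was possible, and every interval below is a 95% interval for counting error only.

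After damage, intestinal epithelium is known to leave its homeostatic program for a transient regenerative state that resembles fetal epithelium. ANXA1 is a phospholipid-binding annexin with anti-inflammatory roles. LY6A (Sca-1) is a membrane-anchored protein used as a marker of that state, and SPRR1A is a precursor of the cornified envelope of squamous epithelium.

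Some features of the libraries bear on all values. The single tables of ENR+CV and ENR+CD carry each other's sample label, and the cell names of the merged table were followed instead. ENR and ENR+CD shared 1 cell barcode, and its ENR cell is a member of 1004 UMIs with 3 UMIs of the rule genes. Another ENR member had 1.32 reads per UMI, against 8.13 in the next lowest ENR cell and a median of 15.5 in the ENR members. A further 2 ENR members gave 11.4% and 11.9% of their UMIs to enteroendocrine genes. Without these 4 cells, 17 ENR members remain, and ratios that move by over 1.5 times without the cell of few reads per UMI are given both ways. Of the 3 members in ENR+CV, 2 had fewer than 8 reads per UMI, so that library was not described further.

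The letters upstream of Anxa1 and Sprr1a are shown because the members are defined by transcripts of these genes and of Ly6a. No window was available for Ly6a, so its upstream letters were not searched. The windows are from RefSeq (GRCm38.p6) and cover the 250 bases before the start site, 5′ to 3′ on the minus strand that both genes lie on. Anxa1 lies at chr19:20390672-20390921 and Sprr1a at chr3:92485882-92486131. Capitals mark matches to the AP-1 motif TGANTCA, the TEAD motif GGAATG or its reverse complement CATTCC, and the interferon response element, searched on both strands, and the matches shown do not overlap. Sprr1a has 2 AP-1 matches, with first bases at -146 and -116 from the start. Anxa1 has 1 TEAD match at -236.
Anxa1: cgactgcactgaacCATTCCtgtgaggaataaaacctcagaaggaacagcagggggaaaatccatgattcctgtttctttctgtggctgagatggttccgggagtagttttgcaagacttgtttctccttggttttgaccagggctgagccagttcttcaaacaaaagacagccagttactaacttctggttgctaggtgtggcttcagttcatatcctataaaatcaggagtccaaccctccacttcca
Sprr1a: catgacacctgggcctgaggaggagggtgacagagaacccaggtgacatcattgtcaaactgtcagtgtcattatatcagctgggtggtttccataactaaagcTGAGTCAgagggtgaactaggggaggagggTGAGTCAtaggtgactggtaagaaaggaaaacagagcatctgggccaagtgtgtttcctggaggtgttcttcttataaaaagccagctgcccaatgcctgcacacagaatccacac

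Members made up 0.825% of ENR cells (Clopper-Pearson interval 0.511% to 1.26%) and 6.13% of ENR+CD cells (5.20% to 7.17%). These shares follow from the rule genes and are descriptions. Had the rule UMIs of each library been spread over its cells by depth alone, 1.90 ENR cells and 80.7 ENR+CD cells would have had 3 or more. Summed over all kept cells, Anxa1 stood at 17.3 CPM (UMIs of a gene per 1000000 UMIs) in ENR and 174 in ENR+CD. Ly6a stood at 26.7 and 107 CPM, and Sprr1a at 19.8 and 32.8 CPM. All 3 were thus higher in the ENR+CD library. When every cell was thinned to 1000 UMIs, 11 ENR cells (0.432%) and 52 ENR+CD cells (2.18%) still had 3 or more. The order of the libraries was the same at matched depth.

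**Figure D1:**
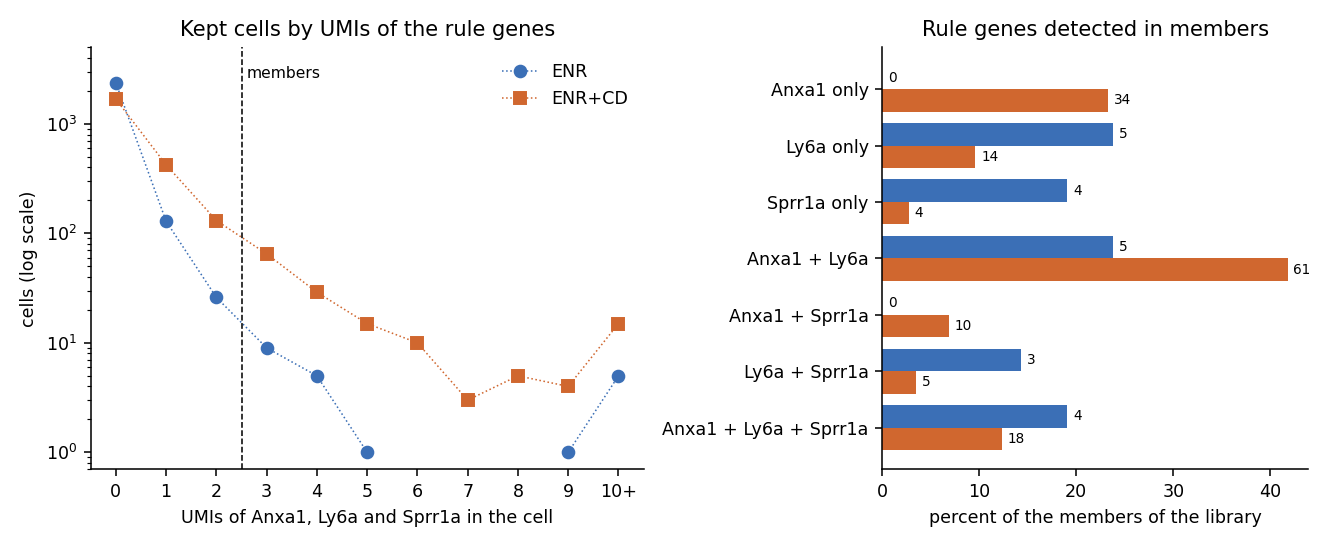
Left, number of kept cells (log axis) by their UMIs of Anxa1, Ly6a and Sprr1a together, for ENR (circles) and ENR+CD (squares), with members to the right of the dashed line. Right, which of the 3 genes the members carried, as a percent of the members of each library, with cell numbers at the bars. Cells thin out without a gap at the threshold of 3 UMIs, and Anxa1 together with Ly6a is the most frequent pattern in ENR+CD (61 cells).

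The number of cells fell without a gap at the threshold. Cells with exactly 3 UMIs numbered 9 in ENR and 65 in ENR+CD, and cells with 2 numbered 26 and 131. The members held 44.3% of the 325 UMIs of the rule genes in ENR and 51.9% of the 1423 in ENR+CD. The highest cell had 32 UMIs in ENR, of which 30 were Sprr1a, and 18 in ENR+CD. In both libraries the median member had 4.

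Barcodes below 1000 UMIs, which can hold free RNA or small cells, carried the rule genes at 54.3 CPM (45.0 to 65.0) in ENR and 304 CPM (284 to 324) in ENR+CD. Kept cells stood at 63.8 and 314 CPM, close to these levels. How much of the rule UMIs of single cells was free RNA was not tested. In ENR+CD the rule genes were uneven across cells sorted by their share of PC genes and cut into 10 groups of like size. After thinning, 19.7% of the lowest group (median depth 2032 UMIs before thinning) and 6.30% of the highest group (median 1849 UMIs) had any UMI of the 3 genes. The change was not steady, since the share was 29.4% in the fifth group and 27.7% in the seventh. The rule genes stood at 355 CPM (311 to 404) in the lowest group, at 482 CPM in the next and at 60.8 CPM (41.6 to 85.8) in the highest. The PC-richest cells held 0.840% members and the PC-poorest 11.7%.

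Most members carried more than 1 of the genes. In ENR+CD, 94 members had 2 or 3 of them and 52 had 1, and Anxa1 was found in 123 members, Ly6a in 98 and Sprr1a in 37. In ENR, 12 members had 2 or 3 of the genes and 9 had 1. There Ly6a was found in 17 members, Sprr1a in 11 and Anxa1 in 9, and every ENR member with Anxa1 also had Ly6a. No ENR member rested on Anxa1 alone, against 34 in ENR+CD.

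Members were deeper than reference cells, which a threshold on UMIs favors. Their median was 2287 UMIs against 1539 in ENR, and 2188 against 1487 in ENR+CD. Mitochondrial transcripts took a median of 10.6% of the UMIs of ENR members and 14.7% of the reference, and 7.18% against 7.12% in ENR+CD. The summed members held 64316 UMIs in ENR and 363337 in ENR+CD, against 4734267 and 3093878 in the reference, so ENR+CD gives the firmer values.

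A gene was called when member and reference CPM stood 2-fold or more apart, their Poisson intervals did not touch, and both sets together held 20 UMIs or more. Of 10643 genes tested in ENR, 465 were called higher in members (4.37%) and 63 lower (0.592%). Of 10275 tested in ENR+CD, 270 were higher (2.63%) and 78 lower (0.759%). Among 9701 genes tested in both, 62 were higher in both libraries (0.639%) and 9 lower in both (0.0928%). Of the ENR+CD genes called higher and tested in ENR, 24.8% were also higher in ENR and 0 were lower. Of the ENR genes called higher and tested in ENR+CD, 14.4% were also higher in ENR+CD and 6 were lower. Of 75 genes called lower in ENR+CD and tested in ENR, 9 were lower in ENR and 6 were higher. Of 59 called lower in ENR and tested in ENR+CD, 9 were lower there and 0 higher. The members of each library were chosen on the same 3 genes, so a shared call shows which genes went along with them in both, and no more. Without the 4 ENR cells named above, 330 genes were higher in ENR and 51 in both. Single cells carried many of the ENR calls, since leaving out the highest member of each gene left 125 calls in ENR, 108 in ENR+CD and 23 in both.

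The genes that went along with Anxa1, Ly6a and Sprr1a most steadily encode calcium-binding annexins and S100 proteins, a galectin, a keratin and a growth factor. Under all 21 alternative settings, 8 genes were called higher in both libraries: Anxa2, Anxa3, S100a6, S100a14, Lgals3, Il1rn, Areg and Krt19. Among these settings, a 1.5-fold limit and the lack of a UMI minimum could only add calls. S100a14 and Krt19 are outside the rule for named genes and were chosen after their values were seen. S100a6, a small calcium-binding protein, was at 2519 CPM in ENR members and 107 CPM in the ENR reference, a ratio of 23.5 (19.6 to 28.1). In ENR+CD it was at 2375 and 629 CPM, a ratio of 3.78 (3.48 to 4.10). The members of both libraries thus sat at similar levels of S100a6, and the smaller ratio in ENR+CD came with a higher reference. It was detected in 17 of 21 ENR members and 130 of 146 ENR+CD members, against 15.3% and 56.2% of the reference cells. Depth was not matched in these detection values, and the members were deeper.

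Anxa2, an annexin that organizes membranes and actin, was at 2223 against 178 CPM in ENR and at 589 against 154 CPM in ENR+CD. The ratios were 12.5 (10.4 to 14.9) and 3.84 (3.25 to 4.52). The member with few reads per UMI held 65 of the 143 Anxa2 UMIs of ENR members, and without it the ENR ratio was 7.44. Its partner S100a10 was 4.24-fold higher in ENR and 2.44-fold in ENR+CD, and S100a11, another S100 protein, 9.09-fold and 2.88-fold. Anxa3 had ratios of 20.5 (12.9 to 31.7) and 7.03 (5.30 to 9.31) and was found in 50 ENR+CD members. Anxa10 was 70.5-fold higher in ENR, where 14 of 23 UMIs lay in the cell with few reads per UMI and the ratio without it was 30.2. In ENR+CD it was 8.04-fold higher (3.89 to 16.5). These annexins and S100 proteins were higher in members of both libraries, by different factors.

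Lgals3, the gene of galectin-3, had 40 UMIs in ENR members and a ratio of 28.9 (19.5 to 42.0), or 18.2 without the cell with few reads per UMI. In ENR+CD it had 75 UMIs in 33 members and a ratio of 7.98 (5.75 to 11.1). Il1rn, which encodes the antagonist of the interleukin-1 receptor, was 31.3-fold (17.6 to 53.9) and 7.88-fold (4.39 to 14.1) higher. It remained sparse, with UMIs in 8 ENR and 18 ENR+CD members. Areg, the EGF receptor ligand amphiregulin, was at 964 against 141 CPM in ENR and at 413 against 99.2 CPM in ENR+CD. Its ratios were 6.82 (5.17 to 8.86) and 4.16 (3.40 to 5.07), with UMIs in 11 and 60 members. Krt19, a keratin of simple epithelium, was 3.66-fold and 3.37-fold higher, close to each other in the 2 libraries. S100a14 was 12.3-fold and 4.16-fold higher.

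**Figure D2:**
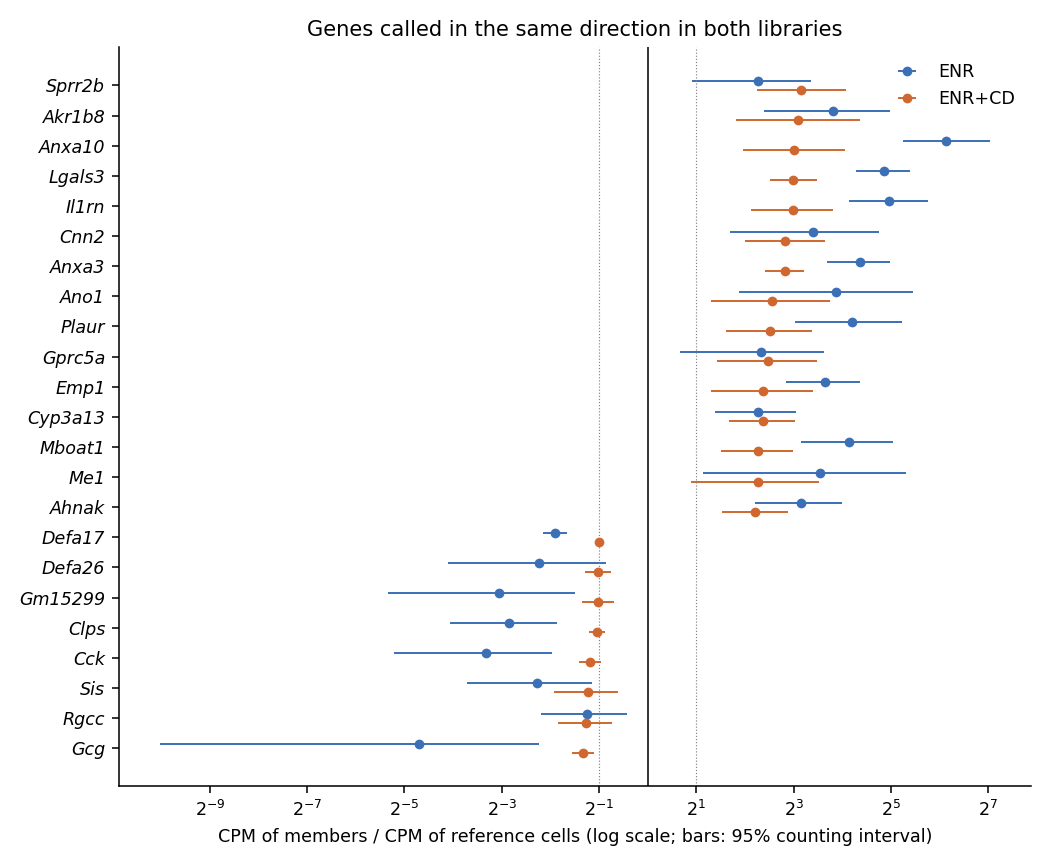
Ratio of the CPM of members to that of reference cells (log axis), with 95% counting intervals, for genes with the largest shared changes called higher (15) or lower (8) in both libraries. The solid line marks equality and the dotted lines the 2-fold limits. ENR ratios lie farther from 1 than ENR+CD ratios for most of these genes, and their intervals are wider.

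Other genes shared by both libraries fall into a few roles. Plaur, the urokinase receptor, was 18.4-fold and 5.68-fold higher. Of its 10 UMIs in ENR members, however, 8 lay in the cell with few reads per UMI. Without that cell the ENR ratio was 4.02, and Plaur was no longer called higher in both libraries. Emp1, an epithelial membrane protein, was 12.5-fold and 5.18-fold higher, with 6.83-fold in ENR without that cell. Tnfrsf12a, the receptor of the cytokine TWEAK, was 5.07-fold and 2.02-fold higher, just past the 2-fold limit in ENR+CD. It was called higher in both under 14 of 21 settings, and not on CPM outside PC genes. Cxcl16, a chemokine that is also made in a membrane-bound form, was 17.7-fold and 3.03-fold higher, with 8.05-fold in ENR without that cell. Ahnak, a large scaffold protein, was 8.94-fold and 4.64-fold higher, and Cnn2, an actin-binding calponin, 10.5-fold and 7.10-fold. Mboat1, a lysophospholipid acyltransferase, was 17.7-fold and 4.81-fold higher, with 10.4-fold in ENR without that cell. Sprr2b, of the same gene family as Sprr1a, was 4.82-fold and 8.90-fold higher, and Akr1b8, an aldo-keto reductase, 13.9-fold and 8.52-fold. Many of these rest on few UMIs in ENR, as few as 3 for Me1, the malic enzyme gene, and 4 for Ano1, a chloride channel gene. For each, 2 UMIs lay in the cell with few reads per UMI, and without it neither gene was called in both.

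Summed levels of several of these genes also rose in steps over cells that the rule left out. In ENR+CD, S100a6 stood at 629 CPM in cells with no UMI of the rule genes, 931 with 1, 1297 with 2, 1668 with 3, 1532 with 4 and 3639 with 5 or more. In ENR the same steps gave 107, 431, 866, 1377, 1064 and 4578 CPM. Areg in ENR+CD went from 99.2 CPM at 0 to 160 at 1, 166 at 2 and 635 at 5 or more. Lyz1, the lysozyme of PC granules, ran the other way in ENR+CD, from 15194 CPM at 0 to 10578 at 3 and 4355 at 5 or more. Epcam, an epithelial surface protein, stayed between 1107 and 1424 CPM over these steps in ENR+CD. The cells with 1 or 2 UMIs, as sums, lay between reference and members for S100a6 in both libraries. Whether single cells at these steps were intermediate, or were a mixture of cells like the members and like the reference, was not tested.

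**Figure D3:**
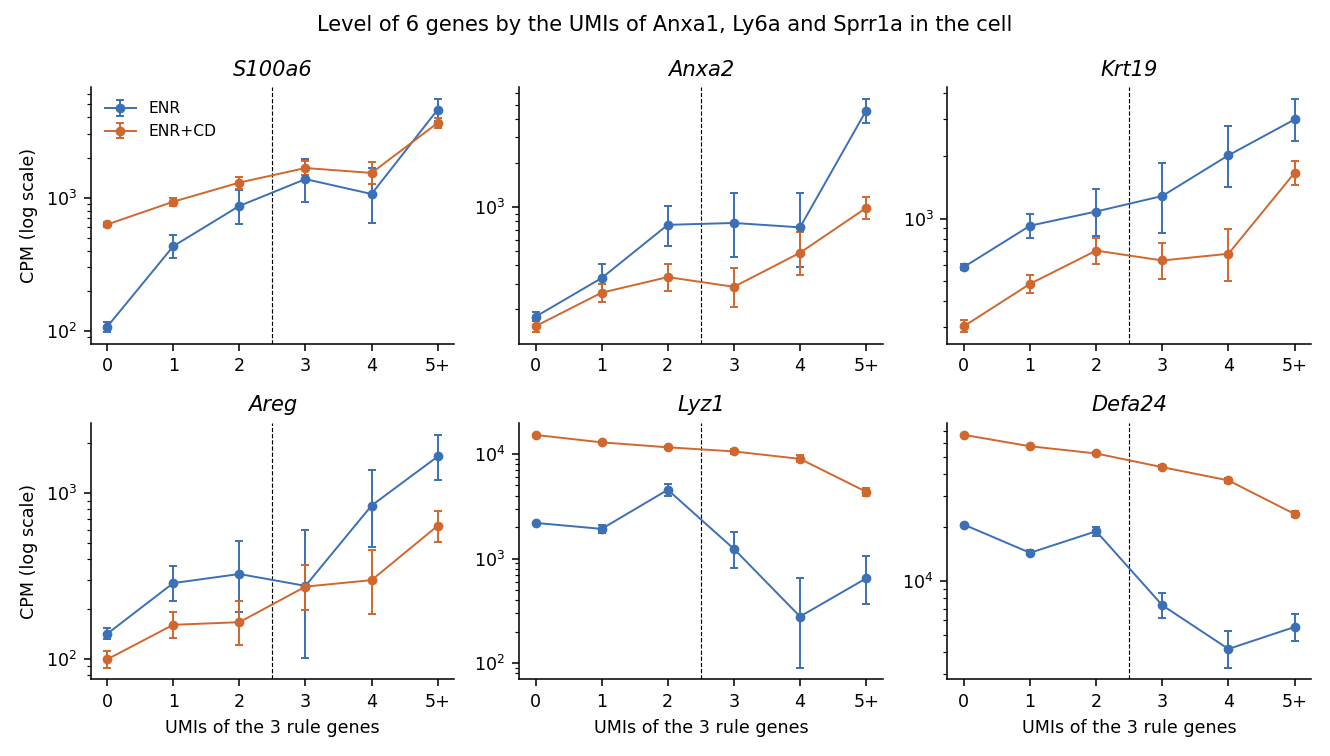
Level of 6 genes in CPM (log axes) in cells grouped by their UMIs of Anxa1, Ly6a and Sprr1a, with 95% Poisson intervals, for ENR and ENR+CD, and members to the right of the dashed line. In ENR+CD, S100a6 runs from 629 to 3639 CPM and Defa24 from 66288 down to 23796 CPM between the first and the last step.

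The members were also described with a list of genes of regenerative and fetal epithelium, without the rule genes. This list was chosen with earlier results of these data known, so it cannot test the label of regenerative-like cells. The genes of this list together took 8.45-fold more of the UMIs of ENR members than of the reference (7.37 to 9.65), or 7.05-fold without the 4 cells named above. Of the list UMIs in ENR members, 33.1% lay in 1 cell, the member with few reads per UMI. In ENR+CD they took 2.31-fold more (2.16 to 2.48). Of 14 list genes tested in ENR, 10 were called higher and none lower, against 4.37% higher among all genes. Of 18 tested in ENR+CD, 7 were higher and none lower, against 2.63%. The 7 in ENR+CD were Msln, Il1rn, Areg, Anxa3, Anxa10, Mboat1 and Cnn2. The median log2 ratio of the list was 0.91 in ENR+CD, against 0.15 for all genes with enough UMIs. Clu, the clusterin gene that marks revival stem cells, was 18.0-fold higher in ENR on 10 UMIs in 4 members, and 11.8-fold without the cell with few reads per UMI. In ENR+CD it was not called, at 980 against 534 CPM and 1.83-fold (1.63 to 2.06), and was found in 47.6% of the reference cells. The list was thus higher in both libraries as sums over the members, while single members varied widely, as given below. In ENR, members gave from 0% to 1.47% of their UMIs to this list, with a median of 0.285%, and in ENR+CD from 0% to 1.08%, with a median of 0.224%. The reference medians were 0.0152% and 0.0956%. In ENR, 14 members exceeded the 90th percentile of the reference, and in ENR+CD 57 did. The ranges of members and reference cells overlapped in both libraries.

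Many genes of keratins and the cytoskeleton were called as well. Of 26 tested genes of that list, 17 were higher in ENR and 5 in ENR+CD, and none lower, against 4.37% and 2.63% higher among all genes. Krt8, a keratin of simple epithelium, was 3.35-fold and 2.49-fold higher, and Tmsb4x, an actin-binding thymosin, 2.14-fold and 2.37-fold. Actb, which encodes beta-actin, was 2.77-fold higher in ENR, where the cell with few reads per UMI held 208 of 547 UMIs and the ratio without it was 1.88. In ENR+CD it was not called, at 1.40-fold. The whole list was 2.52-fold (2.41 to 2.65) and 1.73-fold (1.69 to 1.77) higher, with ENR at 2.40-fold without the 4 cells.

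Annexins and S100 proteins as a list were 5.47-fold (5.04 to 5.92) and 2.66-fold (2.55 to 2.78) higher. The ENR cell with few reads per UMI held 23.4% of the list UMIs of ENR members. Of 17 genes tested in each library, 7 were called higher in ENR and 9 in ENR+CD, against 4.37% and 2.63% of all genes. Members gave from 0.0509% to 4.30% of their UMIs to this list in ENR (median 0.801%) and from 0.0792% to 3.26% in ENR+CD (median 0.556%), against reference medians of 0.164% and 0.261%. The 90th percentile of the reference was passed by 16 of 21 ENR members and 76 of 146 ENR+CD members. Genes of wound edges and matrix adhesion were 3.07-fold and 1.49-fold higher, with 8 of 17 and 7 of 18 called. Cldn4, a tight junction claudin, was among the 8 in ENR (5.49-fold, 3.50 to 8.25), and was not called in ENR+CD (1.49-fold). Small proline-rich and cornified envelope genes were 3.04-fold and 1.84-fold higher. Sprr2f had 36 UMIs in ENR members, 28 of them in 1 cell, and 2 in the reference (ratio 1325, interval 341 to 11359). It had no UMI in either set of ENR+CD. Sprr2a3 was called in ENR+CD (9.79-fold, 5.14 to 18.8), and in ENR it was 2.76-fold higher (1.09 to 5.79) without a call.

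**Figure D4:**
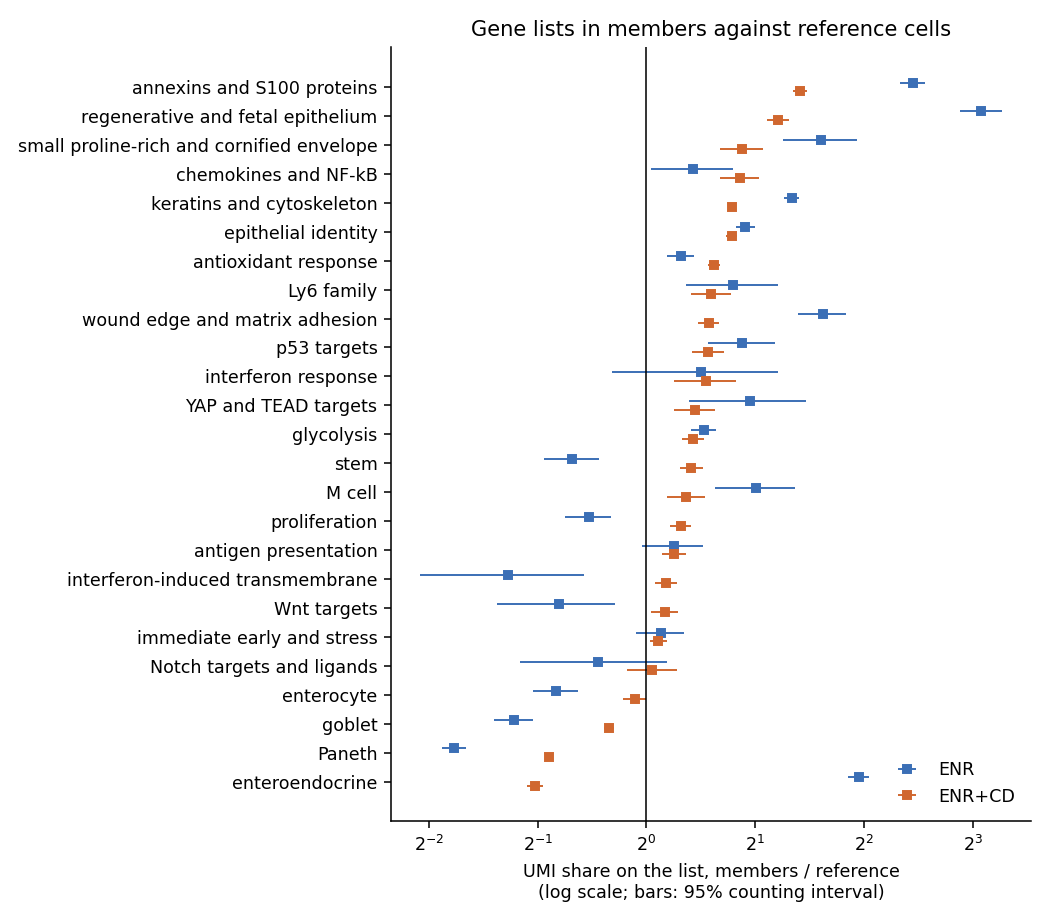
Share of UMIs on each gene list in members relative to reference cells (log axis), with 95% counting intervals, in ENR and ENR+CD. Annexins and S100 proteins (5.47 and 2.66) and regenerative and fetal genes (8.45 and 2.31) lie farthest above 1 in both libraries, PC genes lie below 1 in both (0.294 and 0.539), and the enteroendocrine list lies on opposite sides.

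Lists of signaling pathways had smaller ratios than the regenerative list. Of the YAP and TEAD target genes, which are known to be active in regenerating epithelium, 2 of 13 were called in ENR and 2 of 16 in ENR+CD, against 4.37% and 2.63% of all genes, and the whole list was 1.94-fold (1.31 to 2.76) and 1.36-fold (1.19 to 1.54) higher. Cyr61, a classical target, was not called, at 1.22-fold and 0.845-fold, while Edn1, the endothelin-1 gene, was called in ENR (3.82-fold) and Myof, the myoferlin gene, in ENR+CD (3.34-fold). The other call in each library was Ajuba, a LIM domain gene outside the rule for named genes. Ly6a is inducible by interferon, so interferon response genes were listed too. None of 11 was called in ENR at a list ratio of 1.41 (0.804 to 2.31). In ENR+CD, 2 of 11 were called at 1.46 (1.19 to 1.77), the viral RNA sensor gene Ddx58 (24 UMIs in 17 members, just past the 2-fold limit) and the surface protein gene Bst2 (2.84-fold). Antigen presentation genes had ratios of 1.19 in both libraries with no call, and B2m, the light chain of MHC class I, was 1.16-fold and 1.02-fold.

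Wnt target genes were at 0.572-fold (0.386 to 0.818) in ENR and 1.12-fold (1.03 to 1.22) in ENR+CD, where the medium activates Wnt signaling. The ENR+CD value was close to 1.11, the median ratio there of all genes with at least 5 expected UMIs. No Wnt target was called in ENR, and 1 of 16 was called lower in ENR+CD, against 0.759% of all genes. Axin2, a feedback inhibitor of that pathway, was at 0.256-fold in ENR on 2 UMIs and 1.32-fold in ENR+CD. Stem cell genes were at 0.622-fold and 1.33-fold, and proliferation genes at 0.692-fold and 1.25-fold. The stem and proliferation lists lay on opposite sides of 1 in the 2 libraries, also on CPM outside PC genes (1.22-fold and 1.15-fold in ENR+CD). For proliferation, 1 of 25 genes was called lower in ENR and 1 of 25 higher in ENR+CD. Among all genes these shares were 0.592% and 2.63%.

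Further lists held a few calls each. Among all genes, 4.37% were called higher and 0.592% lower in ENR, and 2.63% and 0.759% in ENR+CD. Chemokine and NF-kB genes had 1 of 12 called higher in ENR, Cxcl16, and 5 of 15 higher and 1 lower in ENR+CD. Antioxidant genes were 1.24-fold and 1.54-fold, with 3 of 19 and 3 of 16 called, Gsta1 and Akr1b8 among them in both libraries. Gsta1, a glutathione transferase, was 2.40-fold higher in ENR (1.49 to 3.66) and 7.57-fold in ENR+CD (6.37 to 8.99), with 256 UMIs in 39 ENR+CD members. Of the p53 targets, 3 of 17 were called in ENR, among them the cell cycle inhibitor gene Cdkn1a (3.06-fold), and 2 of 16 in ENR+CD. Immediate early and stress genes, which tissue dissociation is known to induce, were at 1.09-fold and 1.08-fold. Of these, 2 of 19 were called in ENR and none of 19 in ENR+CD, and Fos, the AP-1 subunit gene, was at 1.10-fold and 0.824-fold. The interferon-induced transmembrane genes were at 0.414-fold in ENR, with Ifitm2 called lower (0.205-fold), and at 1.14-fold in ENR+CD. Genes of M cells had 1 of 7 called higher in ENR, and 2 of 7 higher and 1 lower in ENR+CD. Anxa5, an annexin that is also on that list, was called higher in both (11.2-fold and 2.25-fold). Without the cell with few reads per UMI the Anxa5 ratio in ENR was 4.37.

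Some genes were called higher in 1 library only. In ENR+CD the Ly6a relative Ly6c1 was 14.8-fold higher (8.65 to 25.9), with 40 UMIs in 28 members. In ENR, Ly6c1 had 9 UMIs in members and 3 in the reference, under the minimum of 20. Reads of near-identical Ly6 genes may not have been told apart, and Ly6a and Ly6c1 are neighbors on chromosome 15. Ly6e, another family member, was not called in either library (2.04-fold and 1.16-fold). Msln, the mesothelin gene, was 7.36-fold higher in ENR+CD (4.44 to 12.2) with UMIs in 20 members.

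Other large ratios rested on a few cells. Ccl2, a chemokine that attracts monocytes, was 12.4-fold higher in ENR+CD (8.14 to 19.2), with 57 UMIs in 7 members and 23 of them in 1 cell. It had no UMI in either set of ENR. Zg16, a goblet cell lectin, was 5.85-fold higher in ENR+CD, where 1 member held 57 of 114 UMIs. Apoa1, an enterocyte apolipoprotein, was 7.88-fold higher in ENR+CD with 36 of 37 UMIs in 1 member, and 0.216-fold without that cell. In ENR, Afp, the alpha-fetoprotein gene, which stands on the enteroendocrine list, was 33.6-fold higher. All its 431 UMIs lay in the 2 members rich in enteroendocrine genes, 376 of them in 1 cell.

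PC genes were lower in members of both libraries. Their share of the summed UMIs was 0.294-fold that of the reference in ENR (0.272 to 0.317) and 0.539-fold in ENR+CD (0.533 to 0.545), with 9 of 20 genes called lower in ENR and 5 of 20 in ENR+CD. Among all genes 0.592% and 0.759% were called lower. The ENR ratio depended on the cells taken, at 0.764 in cells under 2000 UMIs (7 members) and 0.597 with members of 2 or more UMIs. Defa17, an alpha-defensin that PCs secrete, was 0.268-fold in ENR and 0.499-fold in ENR+CD. Defa24 was at 5737 against 20736 CPM in ENR and at 34835 against 66288 CPM in ENR+CD, a ratio of 0.526 that just missed the 2-fold limit. Lyz1 was called in ENR (0.340-fold) and not in ENR+CD (0.522-fold). The alpha-defensin genes are near-identical copies, so their single values are uncertain. In ENR+CD each member still had UMIs of Defa24, at a median PC share of 7.27% (quartiles 2.30% and 15.9%) against 14.7% in the reference.

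**Figure D5:**
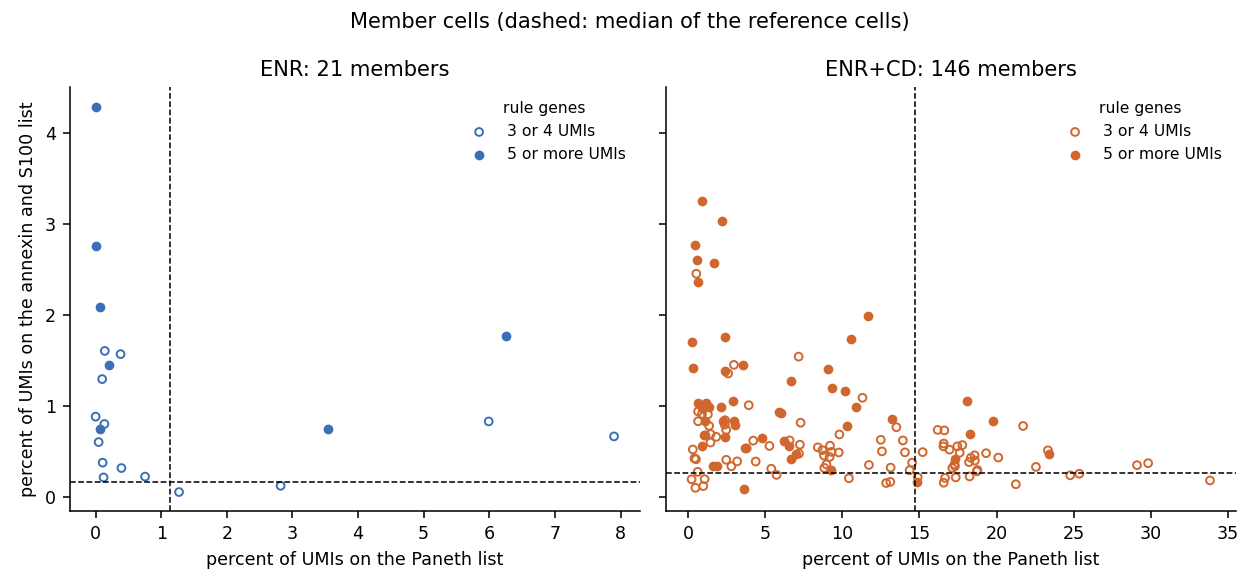
Percent of the UMIs of each member on the list of annexins and S100 proteins against the percent on the Paneth list, for 21 ENR and 146 ENR+CD members, filled where the rule genes had 5 or more UMIs. Dashed lines mark the medians of the reference cells (1.13% and 14.7% for the Paneth list), and most members lie above the annexin and S100 median and to the left of the Paneth median.

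Genes of the other lineages differed between the libraries. Enteroendocrine genes were 0.492-fold in ENR+CD members (0.468 to 0.517), with 8 of 19 called lower, among them the hormone genes Cck (0.443-fold) and Gcg (0.398-fold). In ENR these were lower too, with Cck at 0.0993-fold and Gcg at 0.0382-fold on 1 UMI, and Gip, another hormone gene, at 0.0252-fold on 1 UMI. The whole list was nevertheless 3.87-fold higher in ENR members and 0.132-fold without the 2 members rich in these genes. Goblet genes were 0.430-fold in ENR, but 1.07-fold in ENR cells under 2000 UMIs, and 0.787-fold in ENR+CD, and Spink4, a gene of secretory cells, was called lower in ENR (0.304-fold). Enterocyte genes were 0.562-fold and 0.928-fold, with calls both ways. In ENR, 3 of 21 were called higher and 6 lower, against 4.37% and 0.592% of all genes. In ENR+CD, 3 of 15 were called higher and 2 lower, against 2.63% and 0.759%. Fabp1, the fatty acid-binding protein of enterocytes, was 0.0199-fold in ENR on 1 UMI. Sis, which encodes the disaccharidase of the brush border, was called lower in both (0.208-fold and 0.426-fold). In ENR, 1 pair of members thus set the direction of the enteroendocrine list, while its hormone genes Cck, Gcg and Gip were called lower.

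Markers of cells outside the epithelium were near 0. The immune list had 6 UMIs in all ENR members and 15 in all ENR+CD members, with Ptprc and Cd3e at 0 in both. The list of stroma and endothelium had 4 and 13 UMIs, with Col1a1 at 0, and red blood cell genes had none. Epithelial identity genes were 1.88-fold and 1.72-fold higher, and Epcam was at 1.05-fold and 1.07-fold. The members were epithelial by these markers. No doublet caller was run. In ENR, 7 of 21 members and 187 of 2369 reference cells had 4000 or more UMIs. In ENR+CD, 19 of 146 members and 83 of 1683 reference cells did.

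The 146 ENR+CD members differed by which rule gene they carried. The 79 with both Anxa1 and Ly6a had S100a6 at 2856 CPM (2625 to 3103), Lgals3 at 301 CPM and Areg at 510 CPM. The 44 with Anxa1 and no Ly6a had S100a6 at 2129 CPM (1872 to 2410), Lgals3 at 120 CPM and Areg at 308 CPM. The 19 with Ly6a and no Anxa1 had S100a6 at 1159 CPM (851 to 1541) and Areg at 173 CPM, closer to the reference, and a median PC share of 15.2%. The first and second sets had PC shares of 8.83% and 4.02%. Gsta1 stood at 893 CPM in cells with both genes, 368 with Anxa1 and no Ly6a, and 123 with Ly6a and no Anxa1. Of the 57 Ccl2 UMIs, 53 lay in the cells with Anxa1 and no Ly6a. In these sets Ly6a without Anxa1 went with the lowest levels of S100a6, Areg and Gsta1, at a median depth of 1666 UMIs against 2057 and 2381.

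The members also differed by how many UMIs of the rule genes they held. The 52 ENR+CD members with 5 or more had Msln at 199 CPM (131 to 290), Gsta1 at 1181 CPM and Lgals3 at 354 CPM. The 94 members with 3 or 4 had Msln at 21.9 CPM (7.12 to 51.2), Gsta1 at 421 CPM and Lgals3 at 118 CPM. Clu stood at 1188 and 856 CPM. The median PC share was 3.30% in the first set and 10.1% in the second, at median depths of 2119 and 2208 UMIs. The set with more rule UMIs thus had more of these genes and less of the PC genes at a similar depth. In the 37 members with Sprr1a, S100a6 stood at 1852 CPM, Areg at 425 CPM and Lgals3 at 82.6 CPM (33.2 to 170), against 2534, 409 and 244 CPM (190 to 309) in the 109 without it.

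The 21 ENR members were a mixed set. S100a6, Anxa2 or Lgals3 were detected in 19 of them. The member with most rule UMIs (30 Sprr1a and 2 Ly6a) had 28 UMIs of S100a6, 18 of Anxa2 and 13 of Areg among 4494 UMIs. The next had 9 Ly6a and 7 Anxa1 UMIs, with 19 of S100a6, 15 of Anxa2 and 15 of Areg. A shallow member of 1187 UMIs carried 20 UMIs of S100a6 and 13 of Lgals3. Over 2% of the UMIs went to PC genes in 5 members, and over 5% to enteroendocrine genes in 2. The remaining 14 had low shares of both. The 2 enteroendocrine-rich members met the rule by Ly6a alone, with 4 and 3 UMIs, and had no UMI of Anxa2 or Lgals3.

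Promoter letters were searched in all genes tested with a RefSeq window of 300 bases, from 250 before to 50 after the start. The AP-1 motif TGANTCA was present in 13 of 44 genes higher in both libraries (29.5%) and in 391 of 8221 genes tested (4.76%). It was present in 9.52% of genes higher in ENR and 11.7% of those higher in ENR+CD. The TEAD motif was present in 15.9% of the shared genes and 11.8% of all, and the interferon motif in 2.27% and 2.66%. A window was found for 44 of the 62 shared genes and 8221 of 11217 tested. A match is a description of letters, not of a bound site. The windows of 7 shared genes are printed with the 10 bases on each side of the motif, which is in capitals, because they are the letters behind this share. They read 5′ to 3′ on the strand of the gene. Plaur is among them by its main call, which was lost without the ENR cell with few reads per UMI.
Anxa2 (chr9:69453578-69453604, plus strand, motif from -95): ccaagttggaTGAGTCAcccagcaggg
S100a11 (chr3:93520350-93520376, plus strand, motif from -136): agagacctgtTGAGTCAcagggactac
Il1rn (chr2:24336709-24336735, plus strand, motif from -141): tctgctagacTGAGTCAcgcctctgga
Plaur (chr7:24462404-24462430, plus strand, motif from -69): cccctggagcTGACTCActctttagca
Emp1 (chr6:135362776-135362802, plus strand, motif from -145): tctgtgtgtcTGAGTCAgagggagcta
Anxa10 (chr8:62123357-62123383, minus strand, motif from -180): tacctttccaTGAGTCAtcagctttta
Sprr2b (chr3:92316500-92316526, plus strand, motif from -195): aaaggactctTGAGTCAcaagactcaa

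Fold values in ENR+CD depend on the scale, since PC transcripts make up much of that library. The median log2 ratio of genes with at least 5 expected UMIs was 0.15 in ENR+CD and -0.02 in ENR. With CPM computed outside the Paneth list and the alpha-defensin genes, the ENR+CD median was 0.02, 173 genes were higher and 127 lower. The power to call lower was unequal, because 7006 genes in ENR+CD and 1662 in ENR were abundant enough to be called lower at 0 UMIs.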

How the data were processed

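Seq-Well libraries of 3 organoid cultures were used. The authors mapped reads to mm10, assigned them to cell barcodes and merged reads of 1 UMI. The deposited tables hold UMI counts, and read counts beside them, without normalization. The submitters' processing notes name bcl2fastq, STAR and Seurat. The sources used here do not give versions or an annotation. The merged UMI table was analysed, and each of its libraries matched 1 single table cell by cell, and where the labels of ENR+CV and ENR+CD were crossed, the merged names decided.

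Cells with 1000 to 7999 UMIs and at least 400 genes were kept. Of cells over 7999 UMIs, which were left out, 4 of 82 in ENR and 17 of 77 in ENR+CD met the rule for members. Doublets were not called or removed.

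UMIs were summed over members and over reference cells and scaled to CPM (per 1000000 UMIs). CPM have exact Poisson intervals, ratios exact binomial and shares Clopper-Pearson intervals (95%), which cover counting error only. A gene or set at 0 UMIs was set to a floor of 3 for a bound, over the group. A gene was called at a 2-fold difference with separate intervals and 20 UMIs in the pair, and the rule genes were not counted. With 1 library per condition no p value was computed. The members and the gene lists were chosen with earlier results of these data known. Named genes are the rule genes, the 10 largest ratios each way per library among called genes with at least 50 UMIs, the 15 higher and 10 lower genes whose smaller change of the 2 libraries is largest, and, per gene list, the 4 genes with most UMIs in members of both libraries. For thinning, each cell was cut to 1000 UMIs at random (seed 11). Of the named genes, 1 is not reported here. The call rule was run on simulated Poisson counts summed per set. These lack the spread between cells, so the run cannot measure false calls that single cells cause. The alternatives were 16 planned and 5 added after seeing the data. Promoters and motifs come from RefSeq (GRCm38.p6), with chromosome 18 left out. Scripts ran in Python 3.11.15 with SciPy 1.17.1 for intervals, NumPy 2.4.6 for sums and matplotlib 3.10.9 for plots.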

Additional observations from a re-analysis of the deposited data

Results flagged for a closer look

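Chgb, the chromogranin B gene of enteroendocrine cells, was called in opposite directions in the libraries, with a log2 ratio of 2.38 in ENR members and -1.25 in ENR+CD members. The difference between the libraries was not tested. The 2 ENR members rich in enteroendocrine genes held 393 of the 400 Chgb UMIs, and without them the ENR ratio was 0.105.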

How the results depend on the processing

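With 1 library per condition, all values describe these libraries, and depth limits ENR most, where 21 members hold 64316 UMIs. No paired analysis was possible because the result comes from no test and each condition has 1 library. The causes of the changes below were not tested, except that stricter rules leave fewer cells and other folds change the call itself. Asking for 2 UMIs gave 47 and 277 members in ENR and ENR+CD, 4 UMIs gave 12 and 81, 5 UMIs (added after seeing the data) 7 and 52, and thinned cells 11 and 52. Without Ly6a the rule found 11 and 81, and without Anxa1 59 in ENR+CD.

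Genes higher in ENR numbered 465, against 966 with all cells of the merged table, 186 in cells under 2000 UMIs and 125 without the highest member of each gene. Genes higher in ENR+CD numbered 270, against 406 with all cells, 173 on CPM outside PC genes, 159 when centered on the median gene, 518 at 1.5-fold, 106 at 3-fold, 424 with members of 5 UMIs and 108 without the highest member. The shared count of 62 became 36 with members of 2 UMIs, 143 with all cells, 22 under 2000 UMIs, 123 at 1.5-fold, 27 at 3-fold, 99 with members of 5 UMIs and 23 without the highest member. Genes lower in ENR (63) became 291 with all cells, 8 under 2000 UMIs, 97 at 1.5-fold and 35 at 3-fold. Those lower in ENR+CD (78) became 170 with all cells, 38 under 2000 UMIs, 127 outside PC genes, 140 when centered, 124 at 1.5-fold and 26 at 3-fold. The 9 genes lower in both became 1 with 2 UMIs, 20 with 4, 21 with 5, 14 with thinned cells, 35 with all cells, 3 without Anxa1, 20 without Ly6a, 5 with a reference that includes cells of 1 or 2 UMIs, 0 under 2000 UMIs, 14 outside PC genes, 14 when centered, 25 at 1.5-fold and 0 at 3-fold.

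The log2 ratios of some named genes changed sign. Apoa1 in ENR+CD was -1.44 with 4 UMIs, -1.03 with thinned cells, -2.10 without Sprr1a in the rule, -0.81 with 5 UMIs and -2.21 without its highest member. Prap1 in ENR+CD was -0.34 with 4 UMIs, -1.40 thinned, -1.13 under 2000 UMIs and -0.20 with 5 UMIs. Ccl2 in ENR+CD was -1.12 thinned and -0.82 under 2000 UMIs, where Zg16 was -1.67 and Cyp3a13 -0.77. Ddx58 in ENR+CD was -0.20 without Anxa1 in the rule and -2.16 with 5 UMIs. In ENR, Chgb was -3.03 without Ly6a, -1.80 under 2000 UMIs, -3.88 with 5 UMIs, -3.25 without the enteroendocrine pair and -3.07 without the 4 cells. Cdkn1a was -0.32 under 2000 UMIs, Gsta1 -0.57 without Sprr1a, and Lyz1 0.19 with 2 UMIs and 0.30 under 2000 UMIs.

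Some ratios of whole lists turned or moved by over 1.5 times, most of them in ENR. In cells under 2000 UMIs, ENR goblet genes stood at 1.07, PC genes at 0.764, enteroendocrine genes at 0.389 and proliferation genes at 0.360, and ENR+CD chemokine genes at 0.924. With all cells, ENR regenerative genes stood at 15.9, annexins and S100 proteins at 9.90, PC genes at 0.131 and goblet genes at 0.215. Regenerative genes in ENR were at 5.39 with members of 2 UMIs and 15.5 with 5. In thinned cells, stem genes in ENR were at 0.304 and proliferation genes at 0.352. Enteroendocrine genes in ENR were at 7.09 with thinned cells, 1.97 with all cells, 0.108 without Ly6a and 0.110 with 5 UMIs. Enterocyte genes in ENR+CD were at 1.17 without Anxa1 and 0.610 with 4 UMIs.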
